A study of Homo sapiens with 3 samples.

Results

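Kinesins are motor proteins that walk along microtubules or take them apart. The human KIF genes were read on 3 whole-genome expression arrays of SKBR3 cells, an established human breast cancer line known for ERBB2 amplification and for lacking oestrogen receptor α. One sample received 1 µM estradiol, another 1 µM ERα17p, a synthetic peptide copied from oestrogen receptor α, and the third 0.1% ethanol as vehicle. All had first been kept for 4 h in medium with hormone-depleted (charcoal-stripped) serum, and RNA was taken 3 h after the additions. Each condition had 1 array, so no difference below has a replicate, an error or a p-value, and the labels do not say what the peptide was dissolved in. Members were all probe sets (groups of array probes read out together) whose only gene symbol is KIF with a number and at most 1 letter, or KIFC1, KIFC2 or KIFC3, with antisense genes left out. They came to 85 of the 41091 probe sets with 1 symbol and to 41 of 19775 genes. By textbook role, 13 genes were placed among mitotic motors, 15 among transport motors and 13 in a mixed class of ciliary, microtubule-regulating or little studied kinesins. This sorting was made with earlier results of these data known.

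Mitotic kinesins build the spindle, move chromosomes and complete cytokinesis, and their mRNAs accumulate in G2 and mitosis. Transport kinesins carry vesicles, mitochondria and ciliary cargo, and cells use them outside division too. Mitotic kinesin genes are textbook targets of the DREAM and MMB-FOXM1 complexes, which bind the cell cycle homology region (CHR) of promoters, often beside CCAAT boxes bound by NF-Y.

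The deposited values are log2 distances from a per-probe-set baseline set by the authors, and the base of 2 was taken from the method (RMA). Arrays can be compared gene by gene, whereas expression levels cannot be read, so that neither the identity of the cells nor the brightness of any kinesin could be checked. A gene's value is the median over its probe sets. "Called" means a difference of at least 1.5-fold. The vehicle array stood apart: the standard deviation over all probe sets was 0.12 with estradiol, 0.13 with ERα17p and 0.27 with vehicle. The 3′ minus 5′ difference of the ACTB control probe sets, a sign of RNA integrity, was 0.02, -0.04 and 0.30 on the same arrays, and that of GAPDH was 0.01, -0.03 and 0.05. Both treatments were compared with this same vehicle array, so the differences from it are not separate evidence.

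The promoters of the mitotic motors often hold CHR letters and CCAAT boxes. The choice of members did not use these letters, but mitotic kinesin genes are textbook CHR targets. A high count in that class is therefore no independent result, and the motifs were chosen after the array values had been seen. RefSeq promoter windows of assembly GRCh38.p14 were matched by symbol for 33 of the 41 genes (42 windows). A window runs from 250 bases before the first base of a start to the 50 bases from it on. A gene can have several, and "first base" below is that of the window's start, which need not be the gene's outermost base. The KIFC1 window (chr6:33391573-33391872) lies inside the gene, which begins at 33391461. The KIF24 window with CHR letters lies inside its gene too. KIF5A, KIF13B, KIF19, KIF21B, KIF26B, KIF27, KIFC2 and KIFC3 were not matched. To let these letters be read directly, the stretch from 140 bases before to 39 bases after the first base is given, in GRCh38.p14 and 5′ to 3′ on each gene's strand, for the 6 mitotic genes with the largest ERα17p minus vehicle difference. For contrast, the same stretch is given for the 2 matched transport genes with the lowest estradiol minus vehicle difference. Capitals mark CHR letters (TTTGAA or TTCGAA) and CCAAT boxes on either strand, so that TTCAAA and ATTGG are the reverse readings. No match of one motif overlapped a match of another (0 cases in the kinesin windows).
KIF23 (chr15:69414209-69414388, plus strand): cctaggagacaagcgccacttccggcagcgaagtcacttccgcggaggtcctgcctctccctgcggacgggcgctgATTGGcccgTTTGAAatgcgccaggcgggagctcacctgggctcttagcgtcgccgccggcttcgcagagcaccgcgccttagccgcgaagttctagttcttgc
KIF20A (chr5:138178972-138179151, plus strand): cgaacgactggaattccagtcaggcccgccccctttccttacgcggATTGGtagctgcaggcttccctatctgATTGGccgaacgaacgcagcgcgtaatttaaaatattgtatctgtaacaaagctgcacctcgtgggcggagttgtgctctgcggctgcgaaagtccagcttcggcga
KIFC1 (chr6:33391683-33391862, plus strand): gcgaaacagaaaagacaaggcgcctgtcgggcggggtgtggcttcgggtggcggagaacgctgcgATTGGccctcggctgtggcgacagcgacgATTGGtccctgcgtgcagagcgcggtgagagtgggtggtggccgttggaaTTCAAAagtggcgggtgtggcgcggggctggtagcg
KIF11 (chr10:92592990-92593169, plus strand): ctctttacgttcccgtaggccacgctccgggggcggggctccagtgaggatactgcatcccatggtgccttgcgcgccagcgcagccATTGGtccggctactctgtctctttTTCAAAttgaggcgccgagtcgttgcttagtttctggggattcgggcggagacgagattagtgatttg
KIF14 (chr1:200620712-200620891, minus strand): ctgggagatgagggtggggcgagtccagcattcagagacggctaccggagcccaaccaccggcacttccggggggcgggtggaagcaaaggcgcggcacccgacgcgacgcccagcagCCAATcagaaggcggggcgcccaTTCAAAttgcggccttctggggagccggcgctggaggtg
KIF4A (chrX:70289964-70290143, plus strand): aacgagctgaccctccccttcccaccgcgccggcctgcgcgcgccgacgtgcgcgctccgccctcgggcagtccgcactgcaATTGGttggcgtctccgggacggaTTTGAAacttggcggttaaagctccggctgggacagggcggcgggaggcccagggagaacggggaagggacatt
KIF3C (chr2:25982458-25982637, minus strand): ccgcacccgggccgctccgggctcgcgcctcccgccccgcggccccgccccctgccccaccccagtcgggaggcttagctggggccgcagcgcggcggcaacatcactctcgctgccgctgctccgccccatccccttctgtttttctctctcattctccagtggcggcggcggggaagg
KIF5B (chr10:32056386-32056565, minus strand): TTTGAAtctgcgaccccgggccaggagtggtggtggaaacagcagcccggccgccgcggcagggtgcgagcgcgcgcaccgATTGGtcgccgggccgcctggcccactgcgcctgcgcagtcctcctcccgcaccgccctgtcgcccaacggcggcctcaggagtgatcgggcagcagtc

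CHR letters occurred in 11 of the 14 mitotic windows (78.6%), in 1 of 16 transport windows (6.25%) and in 1 of 12 windows of the mixed class (8.33%). Over all 35116 windows the share was 16.4%, and over the 21490 windows of genes measured on the arrays it was 13.6%. CCAAT boxes occurred in 10 mitotic windows (71.4%), in 5 transport windows (31.2%) and in 4 windows of the mixed class (33.3%), against 34.6% of all windows. Both together were found in 9 of 14 mitotic windows (64.3%) and in 6.38% of all windows. In KIF23, which encodes the motor subunit of centralspindlin, the CCAAT box began 64 bases and the CHR letters 55 bases before the first base. KIF11 had them at 53 and 28 bases and KIF4A at 58 and 34, each in the same order. KIF20A had 2 CCAAT boxes, 94 and 67 bases before its first base, and no match to these CHR letters in the window. KIF2B and KIF2C, which encode microtubule depolymerases, matched neither motif. Outside the mitotic class, CHR letters were found in the windows of KIF5B and KIF24. Of 3 other motifs searched, GGCGG was in all 14 mitotic windows, but also in 59.0% of all windows and in 14 of 16 transport windows. TTTAAA was in 4 mitotic windows (28.6%, against 12.2% of all), and TTTGGCGC in 1 (7.14%, against 0.65%). A match is a description of letters and not of a bound site.

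**Figure D1:**
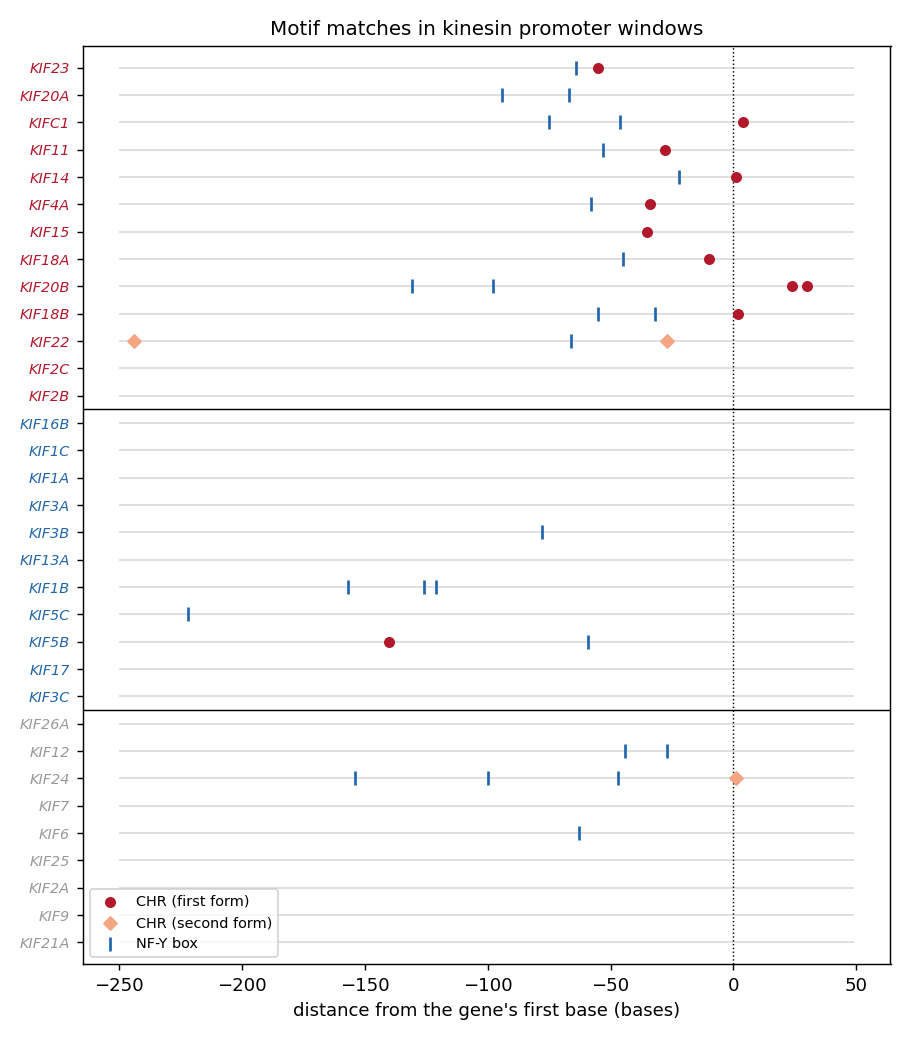
Positions of CHR matches (circles for TTTGAA, diamonds for TTCGAA) and CCAAT (NF-Y) boxes (bars) in the promoter windows of 33 kinesin genes. The x axis is the distance in bases from the first base of the window's start, labelled there as the gene's first base. Each row is a gene, and genes run from mitotic (red names) through transport (blue) to the mixed class (grey). Where a gene has several windows its matches share a row, so the 2 CHR marks of KIF22 are 1 site seen from 2 starts; CHR marks cluster in the mitotic rows, with 11 of 14 mitotic windows holding one.

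On the arrays, the motors placed in the mitotic class all lay on the same side of the vehicle array. That class was drawn with earlier results of these data known. KIF2A, used both at spindle poles and in neurons, was placed in the mixed class and lay below vehicle (-0.09 with estradiol, -0.02 with ERα17p). All 13 genes of the mitotic class lay above the vehicle array after estradiol, with a median difference of 0.31 log2 units. All 13 did so after ERα17p, with a median of 0.45. Over all 19775 genes the medians were 0.03 and 0.03, and the shares above 0 were 56.1% and 58.0%. All 13 were highest with ERα17p, next with estradiol and lowest on the vehicle array, an order that 21.7% of all genes showed. On the vehicle array the 13 genes ranged from -0.85 to -0.10, all below the baseline, as were 59.4% of all genes. The estradiol values ran from -0.04 to 0.06 and the ERα17p values from 0.00 to 0.29. When probe sets open to several transcripts were left out, 9 mitotic genes were left, of which 9 lay above vehicle in both comparisons and 7 kept the order of the 3 arrays. In bulk RNA, fewer dividing cells and less of these mRNAs per cell cannot be told apart. The ACTB sign of RNA integrity and the spread of the vehicle array moved with this result, and their part in it was not tested.

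Few of these differences passed 1.5-fold. With estradiol 1 of 41 kinesins was called higher, KIF23, against 0.809% of all genes, and 0 were called lower, against 2.93%. With ERα17p 2 of 41 were called higher, KIF23 and KIF20A, against 0.582% of all genes, and 0 were called lower, against 2.14%. Between estradiol and ERα17p 0 of 41 were called either way, against 0.147% higher and 0.207% lower among all genes. At a threshold of 25% in either direction the mitotic class had 3 of 13 genes higher with estradiol (7.65% of all genes) and 8 of 13 higher with ERα17p (5.85% of all genes), while 0 of 13 were lower in either, against 8.49% and 6.98% of all genes.

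**Figure D2:**
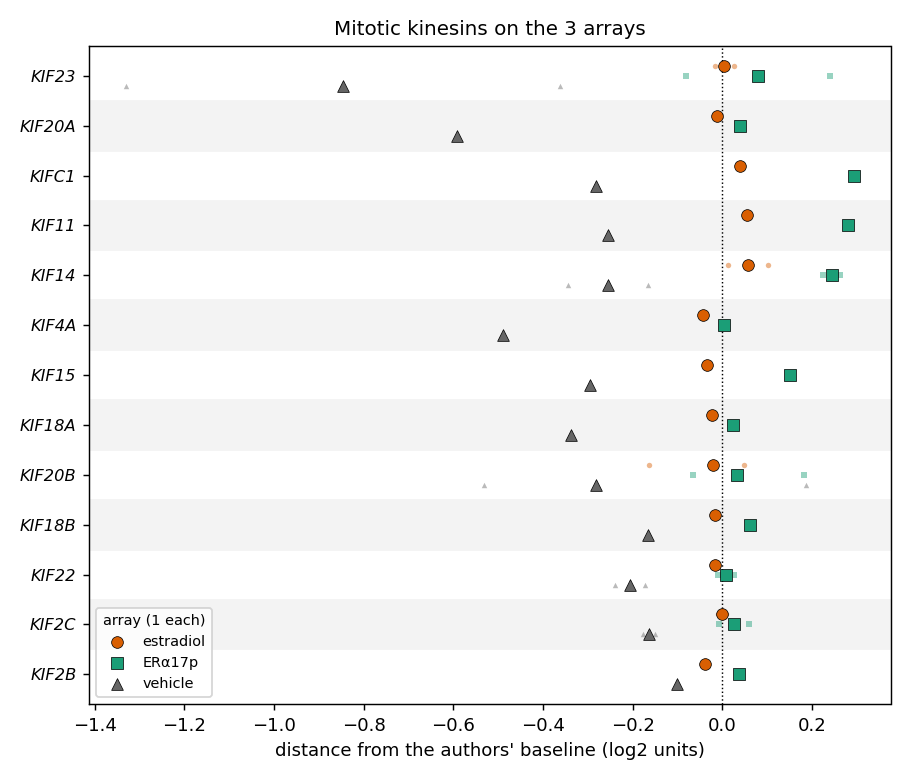
Values of the 13 mitotic kinesins on the estradiol (circles), ERα17p (squares) and vehicle (triangles) arrays, as distance from the authors' baseline in log2 units; large symbols are gene values (medians over probe sets), small ones single probe sets, 1 array each. In every row the vehicle symbol is the leftmost and the ERα17p symbol the rightmost of the large ones, with vehicle values from -0.85 for KIF23 to -0.10 for KIF2B.

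Of the cytokinesis motors, KIF23 and KIF20A had the largest differences of the class from vehicle, while KIF14 and KIF20B lay lower. KIF23 read 0.00 with estradiol and 0.08 with ERα17p, against -0.85 on the vehicle array. It was thus 0.85 log2 units (1.80-fold) above vehicle with estradiol and 0.93 (1.90-fold) with ERα17p, ranks 10 and 5 from the top of 19775 genes. Its 2 probe sets disagreed in size. The first read 0.02 with estradiol, -0.08 with ERα17p and -1.33 on the vehicle array, the lowest value of all 54675 probe sets there. The other, whose name marks it as shared by several transcripts, read -0.02, 0.24 and -0.36, which gives differences of 0.35 and 0.60. Without the first, KIF23 was not called with estradiol and passed 1.5-fold only with ERα17p. KIF20A, which brings the chromosomal passenger complex to the spindle midzone, read -0.01 with estradiol and 0.04 with ERα17p, against -0.59 on the vehicle array. Its difference of 0.58 (1.49-fold) with estradiol lay just under the threshold, and that of 0.63 (1.55-fold) with ERα17p just over it.

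KIF14, a cytokinesis motor that works with citron kinase and PRC1, read 0.06 with estradiol and 0.24 with ERα17p, against -0.26 on the vehicle array. Its differences were 0.31 and 0.50, and both of its probe sets lay above 0 in both. KIF20B, which acts late in cytokinesis, read -0.02 and 0.03, against -0.28 on the vehicle array. Its 3 probe sets ran from -0.21 to 0.58 with estradiol and from -0.15 to 0.71 with ERα17p, so its gene differences of 0.26 and 0.32 hide probe sets of both signs. The lowest of them was the only 1 of 19 mitotic probe sets below 0 in either comparison with vehicle.

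Like all 13 mitotic kinesins, the motors that set up the bipolar spindle lay farther from vehicle with ERα17p than with estradiol. KIF11 (Eg5), which pushes the poles apart, read 0.05 with estradiol and 0.28 with ERα17p, against -0.25 on the vehicle array. KIFC1, a minus-end motor that focuses the poles, read 0.04 and 0.29, against -0.28 on the vehicle array. KIF15, which helps Eg5 hold the poles apart, read -0.03 and 0.15, against -0.29 on the vehicle array. These 3 genes lay 0.31, 0.32 and 0.26 above vehicle with estradiol, and 0.53, 0.57 and 0.45 with ERα17p. With the peptide KIFC1 (1.49-fold) stood just under the 1.5-fold threshold, and KIF11 (1.45-fold) lay farther below it. Each of the 3 genes was read by 1 probe set. The name of the KIFC1 probe set marks it as shared by several transcripts.

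The chromosome arm motors differed from each other. KIF4A, which compacts chromosomes and shortens the central spindle with PRC1, read -0.04 with estradiol and 0.00 with ERα17p, against -0.49 on the vehicle array, with differences of 0.45 and 0.49. KIF22, which pushes chromosome arms away from the poles, read -0.02 and 0.01, against -0.21 on the vehicle array, with differences of 0.19 and 0.21. KIF4A thus lay farther from vehicle than KIF22 in both comparisons.

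Among the motors that regulate microtubule length, KIF18A stood above the others. KIF18A, which damps chromosome movements at the metaphase plate, read -0.02 with estradiol and 0.02 with ERα17p, against -0.34 on the vehicle array, with differences of 0.31 and 0.36. KIF18B, which controls astral microtubules, read -0.02 and 0.06, against -0.17 on the vehicle array (0.15 and 0.23). KIF2C (MCAK), which corrects faulty chromosome attachments, read -0.00 and 0.03, against -0.16 on the vehicle array (0.16 and 0.19). KIF2B, a related depolymerase, read -0.04 and 0.04, against -0.10 on the vehicle array, and had the smallest differences of the class (0.06 and 0.14). Both genes whose promoter windows matched neither motif, KIF2C and KIF2B, were among the 4 lowest mitotic genes in each comparison with vehicle. So were KIF18B and KIF22, which each had a window with both motifs. The 10 mitotic genes with CHR letters had median differences of 0.31 with estradiol and 0.47 with ERα17p, and the 3 without had 0.16 and 0.19. The ranges overlapped. Genes with CHR letters ran from 0.15 to 0.85 with estradiol and from 0.21 to 0.93 with ERα17p. Those without ran from 0.06 to 0.58 and from 0.14 to 0.63, with KIF20A the highest. Among all 15384 measured genes with a window, the medians were 0.03 and 0.04 for the 2651 genes that hold CHR letters. For the 12733 that do not, they were 0.02 and 0.03.

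Estradiol was then set against ERα17p, a comparison in which the vehicle array takes no part. All 13 mitotic kinesins lay lower with estradiol (45.9% of all genes lay higher), by differences from -0.26 to -0.02 and with a median of -0.07, against -0.01 over all genes. The 5th percentile of all genes in this comparison was -0.25, so that KIFC1 alone lay beyond it. The differences were widest for KIFC1 (-0.26), KIF11 (-0.23), KIF14 (-0.19) and KIF15 (-0.19), and under 0.1 in size for the other 9 genes. At the level of probe sets 17 of 19 lay lower with estradiol. The other 2, the first of KIF23 (0.11) and one of KIF2C (0.01), lay higher. Distances from the baseline were also read, with no vehicle value subtracted. By them, 4 of 13 genes were above the baseline with estradiol (median -0.02) and all 13 with ERα17p (median 0.04). That baseline is not free of the vehicle array. For example, 1 probe set of KIF26B read 0.0119 with ERα17p and -0.0119 with vehicle, mirror images around it.

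Transport motors showed no such common direction. With estradiol 9 of 15 lay above the vehicle array and 6 below (median 0.02), with ERα17p 8 above and 7 below (median 0.10), and 9 of 15 lay higher with estradiol than with ERα17p (median 0.03). The order with ERα17p highest and vehicle lowest was found in 2 of 15, KIF3B and KIF16B. The widest difference was that of KIF3C, a neuronal partner of KIF3A, which read -0.07 with estradiol and 0.15 with ERα17p, against 0.41 on the vehicle array. It lay 0.48 below vehicle with estradiol and 0.26 below it with ERα17p, opposite to every mitotic motor, and both of its probe sets were below 0 in both comparisons. KIF17, a ciliary and dendritic motor read by 1 probe set, was at 0.27 with estradiol, -0.16 with ERα17p and -0.02 with vehicle, which gave 0.43 between the treatments, the largest of the family. KIFC3, a minus-end motor of epithelial junctions and the Golgi, read 0.21 with estradiol and -0.04 with ERα17p, against -0.19 on the vehicle array. Its probe sets differed widely with estradiol, from 0.07 to 0.73.

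The conventional kinesin heavy chains are the main cargo motors of most cells. KIF5B, the ubiquitous form, read 0.00 with estradiol and 0.04 with ERα17p, against 0.16 on the vehicle array, and so lay 0.16 and 0.12 below vehicle. Its neuronal relatives KIF5A and KIF5C had differences of 0.18 and 0.00 with estradiol and of 0.10 and -0.07 with ERα17p, with probe sets of both signs in each. KIF3A and KIF3B, which form the heterotrimeric motor of cilia, lay within 0.14 of vehicle with either treatment. The vesicle motors KIF1A, KIF1B and KIF1C had differences of 0.25, -0.09 and 0.21 with estradiol, and of 0.15, -0.05 and 0.15 with ERα17p. KIF16B, an endosome motor, read -0.07 with estradiol and 0.12 with ERα17p, against -0.20 on the vehicle array. Its 0.31 above vehicle with ERα17p was the highest value among transport motors there.

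The mixed class lay between the others with estradiol and near the transport motors with ERα17p. With estradiol 8 of 13 genes lay above vehicle (median 0.22), with ERα17p 9 of 13 (median 0.05), and 7 of 13 lay higher with estradiol than with ERα17p (median 0.02). KIF12, a little studied kinesin, read 0.17 with estradiol and 0.01 with ERα17p, against -0.23 on the vehicle array, and with 0.40 had the largest estradiol difference of the class. KIF26A, an atypical kinesin, read 0.06 with estradiol and 0.21 with ERα17p, against -0.18 on the vehicle array, and with 0.40 had the largest ERα17p difference. KIF7, a regulator of Hedgehog signalling in cilia, read 0.36 and 0.28, against 0.06 on the vehicle array, the highest value of any kinesin on the estradiol array. KIF24, a centriole kinesin that restrains cilia and whose window held CHR letters, read -0.07 and -0.13, against -0.36 on the vehicle array (0.30 and 0.23). KIF2A, a depolymerase used both at spindle poles and in neurons, had differences of -0.09 with estradiol and -0.02 with ERα17p, unlike its mitotic relative KIF2C. KIF21A, a repressor of microtubule growth, lay lowest of the class (-0.23 and -0.19).

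**Figure D3:**
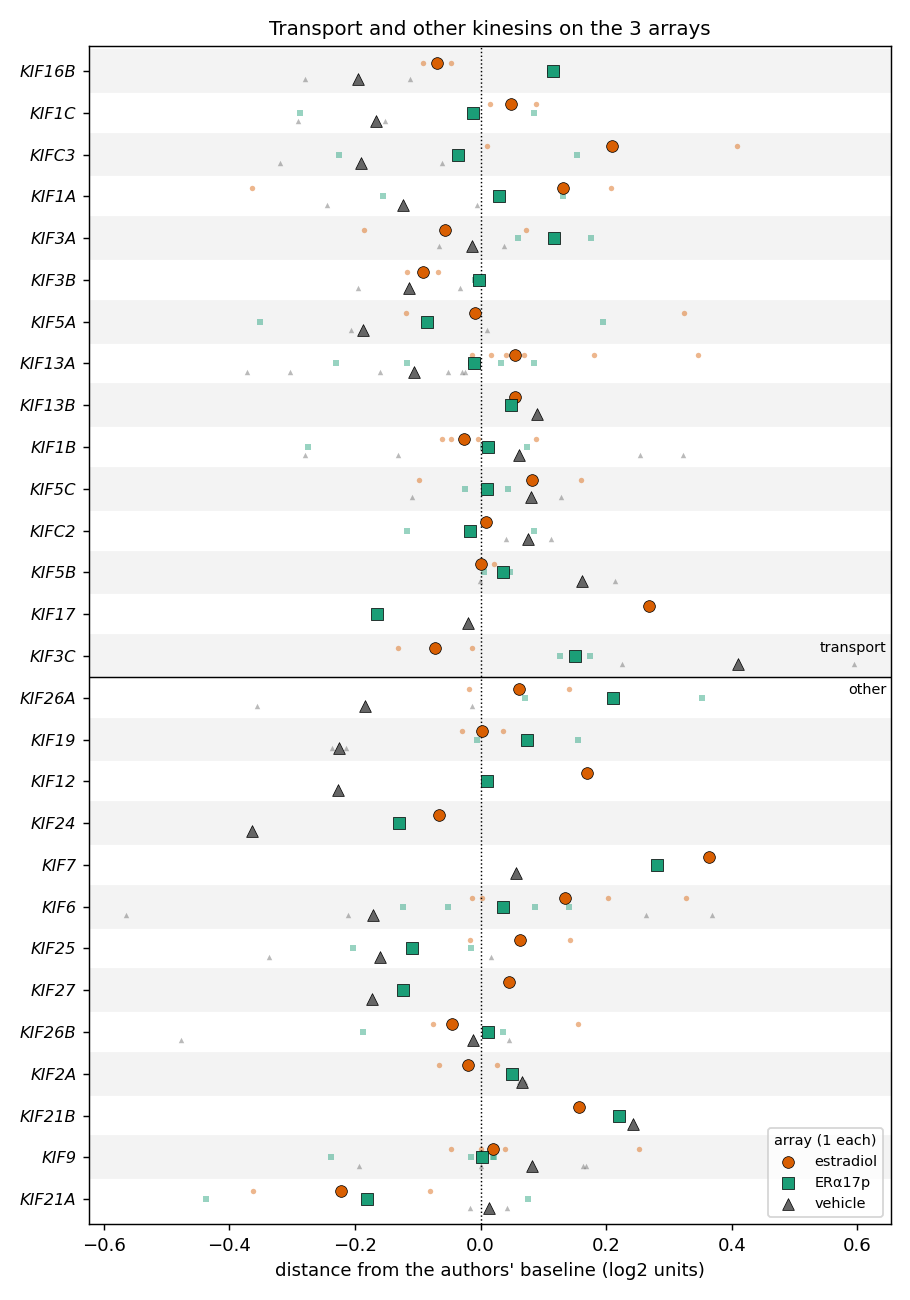
Values of the 15 transport kinesins (upper part) and the 13 kinesins of the mixed class, here named other (lower part), on the estradiol (circles), ERα17p (squares) and vehicle (triangles) arrays, as distance from the authors' baseline in log2 units; large symbols are gene values, small ones single probe sets. The vehicle symbol changes sides from gene to gene, from -0.36 for KIF24 to 0.41 for KIF3C.

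The agreement of a gene's probe sets was read by their sign and by their range, and the classes were not tested against each other. Of 5 mitotic genes with several probe sets, 4 had all of them on the same side of 0 with estradiol and 4 with ERα17p. Among transport motors it was 6 and 7 of 13, and in the mixed class 3 and 4 of 8. Over the 10523 genes with several probe sets the shares were 46.3% and 45.9%. The range was widest for KIF6, a ciliary kinesin with 5 probe sets, which ran from -0.38 to 0.77 with estradiol and from -0.49 to 0.60 with ERα17p. Mitotic genes had wide ranges too, of 1.01 for KIF23 with estradiol and 0.87 for KIF20B with ERα17p, against at most 0.69 and 0.62 among transport genes.

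**Figure D4:**
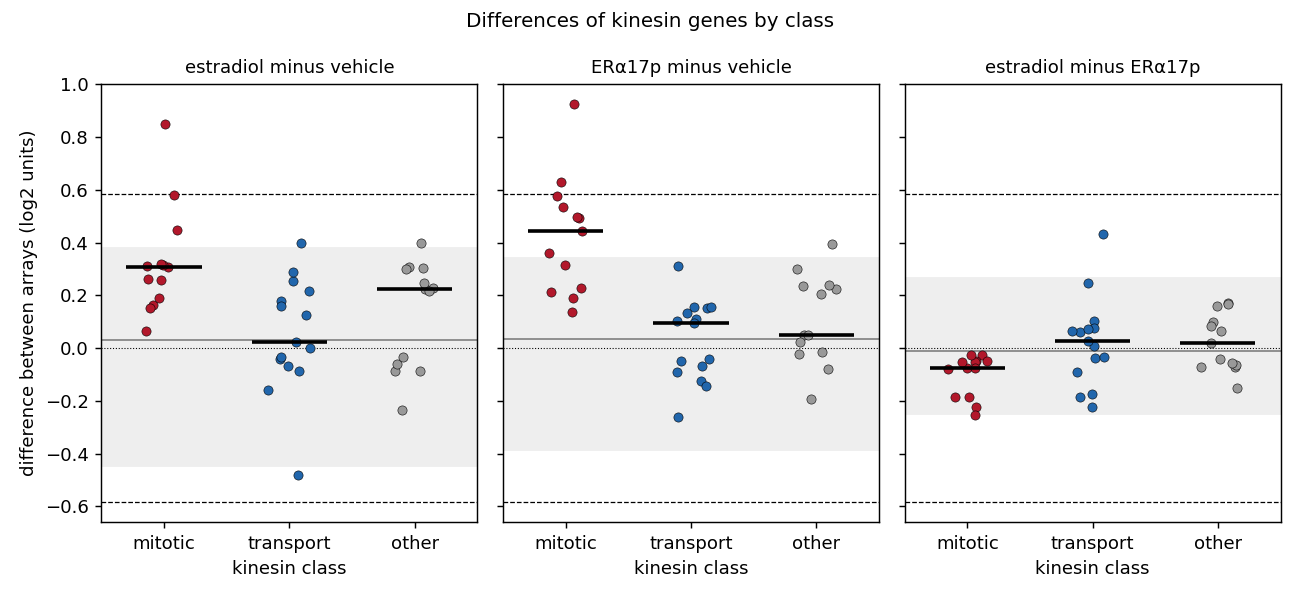
Log2 differences of the 41 kinesin genes by class, in 3 panels: the treatments minus vehicle, then estradiol minus ERα17p; points are genes (the mixed class is named other), thick bars class medians, the grey line and band the median and the 5th to 95th percentile range of all 19775 genes, and dashed lines the 1.5-fold threshold. Mitotic medians are 0.31, 0.45 and -0.07, and KIF23 is the highest point in both comparisons with vehicle.

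Genes whose products work with the motors were read from a list of partners. Of 15 measured partners of mitotic kinesins, all 15 lay above the vehicle array with estradiol (median 0.35, 1 called higher) and all 15 with ERα17p (median 0.39, 2 called higher). Over all genes 56.1% and 58.0% lay above vehicle, and 0.809% and 0.582% were called higher. They were led by PLK1, the mitotic kinase (0.60 and 0.62), TPX2, a spindle assembly factor that targets Eg5 (0.54 and 0.63), CENPE, a kinetochore kinesin that carries no KIF symbol (0.53 and 0.57), and PRC1, which bundles midzone microtubules (0.51 and 0.51). RACGAP1, which forms centralspindlin together with KIF23, had 0.36 and 0.38. Of these partners 11 of 15 had the order shown by all mitotic kinesins, as had 7 of 15 transport partners and 21.7% of all genes. Of 15 measured partners of transport kinesins, 12 lay above vehicle with estradiol (median 0.07) and 11 with ERα17p (median 0.10). Over all genes these shares were 56.1% and 58.0%. In each comparison 1 was called higher, against 0.809% and 0.582% of all genes. It was MAPK8IP1, a scaffold that links JNK kinases to kinesin light chains (0.60 and 0.66). The light chain genes KLC1 and KLC4 lay within 0.06 of vehicle, KLC3 at 0.21 and 0.20 and KLC2 at 0.35 and 0.10. SPAG9, another JNK scaffold, lay below vehicle (-0.30 and -0.20).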

How the data were processed

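Total RNA of 3 SKBR3 samples was hybridised to 1 Affymetrix array each. The deposited log2 values were computed by the authors with RMA, per the submitters' processing notes. The sources used here give neither its version nor the log base, which was taken as 2. Column medians near 0 and exact mirror images between 2 columns in 3979 of 54675 probe sets (7.28%, tolerance 1e-06, values over 0.001) show that each probe set had been centred on a median that includes arrays not analysed here. Signal over background is therefore unknown, and no filter on dim probe sets was set.

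Gene names came from the platform annotation. Probe sets with 1 symbol (41091) gave 19775 genes, and 1801 with several symbols were left out. Each gene was summarised per array by the median of its probe sets, and comparisons were differences between 2 arrays. No test was possible with 1 array per condition, and precision is limited by having so few arrays. Classes, partner lists and members were chosen with earlier results of these data known, and the promoter motifs were chosen after the array values had been seen. Named genes were all mitotic kinesins, every kinesin past 1.5-fold, the 5 transport or mixed members with the largest differences (KIF3C, KIF17, KIFC3, KIF12 and KIF26A), and up to 4 partners per list with the largest differences. Other members and partners were named after their values were seen. The calculation was tested on simulated arrays. Python 3.11.15, pandas 2.3.3 and numpy 2.4.6 were used.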

Additional observations from a re-analysis of the deposited data

How the results depend on the processing

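Alternatives were another summary of probe sets, a narrower choice of them, other thresholds, centring of each array, class means, and the baseline in place of the vehicle array; the median of probe set differences, the omission of the KIF23 probe set with the lowest vehicle value, and the counts of mitotic genes above 0 or in the order of the 3 arrays were added after seeing the data. A value was taken as moved at a shift of 0.1 log2 units, a count at 1.5 times. Among counts and class medians, 106 repeats stayed within these bounds, 12 moved and 5 changed sign. At a threshold of 25%, 5 of 41 kinesins were higher and 1 lower with estradiol against vehicle (7.65% and 8.49% of all genes), 9 higher with ERα17p against vehicle (5.85%) and 1 higher with estradiol against ERα17p (2.98%). At 2-fold, 0 were higher with estradiol and 0 with ERα17p. Without that KIF23 probe set, 0 were called higher with estradiol, and KIF23 had 0.35 and 0.60. With the baseline in place of the vehicle array, the mitotic medians were -0.016 with estradiol (4 of 13 above 0) and 0.0388 with ERα17p. The mixed class then had 0.045 with estradiol. This baseline is itself not free of the vehicle array, as mirrored values show. When probe sets open to several transcripts were left out, 2 of 9 mitotic genes lay higher with estradiol than with ERα17p, 7 of 9 kept the order of the arrays, and the medians of transport and mixed kinesins in that comparison were -0.0051 and -0.0374. Transport medians near 0 also changed sign with centred arrays (-0.0018, estradiol against vehicle) and with the median of probe set differences (-0.0367, ERα17p against vehicle); the cause of the changes was not tested.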

Other observations

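Of the 85 kinesin probe sets, 4 were at least 1.5-fold higher and 1 lower with estradiol against vehicle, against 1.38% and 3.71% of all 41091 probe sets. With ERα17p against vehicle 5 were higher and 0 lower, against 0.886% and 2.76%, and with estradiol against ERα17p 2 were higher and 0 lower, against 0.314% and 0.29%. Outside the mitotic class some passed where their genes did not. With estradiol against vehicle these were 1 of 5 probe sets of KIF6 (0.77), 1 of 2 of KIFC3 (0.73), 1 of 6 of KIF13A (0.72) and, on the lower side, 1 of 2 of KIF3C (-0.61). With ERα17p against vehicle, 1 of 5 of KIF6 passed it (0.60). With estradiol against ERα17p, 1 of 3 of KIF5A (0.67) and 1 of 2 of KIFC3 (0.63) did.

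Antisense genes beside kinesins are no members and were read apart. KIF23-AS1 read -0.15 with estradiol and 0.05 with ERα17p, against 0.01 on the vehicle array, where KIF23 stood at -0.85. KIF9-AS1 read -0.02 with estradiol and -0.03 with ERα17p, against -0.27 on the vehicle array, while KIF9 itself read 0.02 and 0.00, against 0.08 on the vehicle array.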
